A study of Mus musculus with 2 samples.

Results

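Natural antisense genes are noncoding genes transcribed from the DNA strand opposite to another gene, usually a protein-coding one, which is called here the sense partner. Their RNA can start head to head with the partner, run over either of its ends, lie inside it or span it. Some, such as Dlx6os1 (Evf2) at the Dlx5 and Dlx6 locus of forebrain interneurons and Nespas at the imprinted Gnas locus, are known to act on neighbouring genes in the mouse, while most have no known role. In the cerebral cortex of 10-day-old mice, 97 such genes of 2948 annotated ones, 3.29%, carried reads at or above the limit used here. Members were all genes whose transcripts are of the antisense type in GENCODE M21 and whose mean over both libraries was at least 50 expected reads, leaving out Airn and Kcnq1ot1 by name from 99 genes. The gene tables held 55450 genes in all. The members were chosen on their own read counts, so their levels are a description and the antisense side of every ratio below is set in part by the choice.

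The samples were 2 libraries of total RNA, depleted of ribosomal RNA, from left cerebral cortex. The donors were B6CASTF1/J females, F1 hybrids of C57BL/6J and CAST/EiJ, at 10 days of age. Both belonged to a single group with no treatment or mutation given in the labels and no other group beside it, so no comparison between conditions was possible. The labels number the libraries as biological replicates of females 03 and 04 yet give both the same donor entry, and each library had 300 ng of RNA and ERCC spike-ins, which are synthetic RNAs. With 2 libraries the smallest exact two-sided p is 0.5, so the results carry no p-values, and every ± is an SD over 2 libraries that may hold technical as well as animal spread.

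Genes held 29843278 expected reads in replicate 1 and 31006959 in replicate 2. Markers of cortical neurons summed to 1419 TPM in replicate 1 and 1417 TPM in replicate 2, those of astrocytes to 793 and 810 TPM and those of microglia to 79.2 and 74.3 TPM. TPM is a transcript abundance corrected for length and scaled to a fixed total per library. The 8 oligodendrocyte markers were all lower in replicate 1 and summed to 196 TPM there, against 391 TPM in replicate 2. Striatal markers summed to 119 and 93.6 TPM, thalamic ones to 57.0 and 49.7 TPM, and choroid plexus ones to 6.4 and 12.7 TPM, in replicates 1 and 2 in that order. In bulk tissue, fewer cells of a type and less RNA per cell cannot be told apart.

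Sequences around the starts of 4 members show the settings in which they lie, with every CG dinucleotide in capitals. They run 5′ to 3′ along the antisense gene, from 250 bases before its start to 50 after it, and come from RefSeq on GRCm38.p6 (mm10). The start is at position 251 of each. 2810001G20Rik is shown for a start back to back with that of Cox10, whose RefSeq start lies at position 239 (chr11:64079234-64079533, plus strand). Kcnmb4os2 (chr10:116472913-116473212, plus strand) and A830082K12Rik (chr13:78197767-78198066, plus strand) are highly ranked members over the 5′ end of a neuronal gene. 4933431E20Rik (chr3:107896164-107896463, minus strand) is a member whose partner, Eps8l3, had no reads.
2810001G20Rik: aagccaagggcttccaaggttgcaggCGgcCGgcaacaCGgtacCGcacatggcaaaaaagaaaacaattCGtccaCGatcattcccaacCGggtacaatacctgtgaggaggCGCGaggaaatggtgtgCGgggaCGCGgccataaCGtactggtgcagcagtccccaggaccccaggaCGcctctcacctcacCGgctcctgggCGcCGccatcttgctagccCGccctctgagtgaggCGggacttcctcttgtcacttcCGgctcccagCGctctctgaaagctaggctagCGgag
Kcnmb4os2: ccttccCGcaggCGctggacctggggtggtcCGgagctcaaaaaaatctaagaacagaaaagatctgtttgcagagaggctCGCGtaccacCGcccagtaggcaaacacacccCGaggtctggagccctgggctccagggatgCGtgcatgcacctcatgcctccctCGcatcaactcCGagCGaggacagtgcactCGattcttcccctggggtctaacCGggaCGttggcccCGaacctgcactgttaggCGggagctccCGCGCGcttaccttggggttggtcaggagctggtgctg
A830082K12Rik: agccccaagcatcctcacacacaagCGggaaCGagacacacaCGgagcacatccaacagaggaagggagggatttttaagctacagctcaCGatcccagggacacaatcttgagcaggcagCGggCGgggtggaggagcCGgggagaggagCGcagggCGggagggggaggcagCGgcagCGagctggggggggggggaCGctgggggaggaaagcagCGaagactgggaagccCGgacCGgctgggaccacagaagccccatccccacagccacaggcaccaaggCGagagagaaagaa
4933431E20Rik: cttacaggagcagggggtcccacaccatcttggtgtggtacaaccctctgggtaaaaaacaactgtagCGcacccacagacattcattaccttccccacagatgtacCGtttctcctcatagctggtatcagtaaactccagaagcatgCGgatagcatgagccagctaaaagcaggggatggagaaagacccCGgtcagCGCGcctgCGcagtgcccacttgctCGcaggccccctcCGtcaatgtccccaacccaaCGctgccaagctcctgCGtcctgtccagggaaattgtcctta
The windows held 22, 19, 16 and 11 CG dinucleotides in the order printed.

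The members varied over almost 2 orders of magnitude, and a pair of genes carried much of their RNA. Mean levels ran from 0.83 to 74.4 TPM with a median of 3.26 TPM. Of the 97, 16 were at 10 TPM or more, 17 between 5 and 10 TPM, 62 between 1 and 5 TPM and 2 below 1 TPM. In both libraries 90 members reached 1 TPM, which 26.9% of all genes did; the count limit bears on this number. lincRNA genes at the same read limit numbered 189 and had a median of 4.91 TPM, and the 12912 protein-coding genes at that limit had a median of 16.8 TPM. The members held 27857 reads in replicate 1 and 26710 in replicate 2, which were 66.4% and 69.1% of the reads of all antisense-type genes but 0.0933% and 0.0861% of gene reads. Of the antisense-type genes, 1533 (52.0%) had 0 reads in both libraries. A count of 0 allows up to 3 reads, or for a transcript of 1 kb 0.160 TPM in replicate 1 and 0.147 TPM in replicate 2, counting error only.

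Tug1, a noncoding RNA known from retinal development and from chromatin regulation, was the highest member with 80.6 TPM in replicate 1 and 68.3 TPM in replicate 2, from 6004 and 5386 reads (chr11:3639785-3649673, minus strand). B230334C09Rik, over the 3′ end of Lrrc40, followed with 33.3 and 30.5 TPM. Together they took 41.3% of the members' reads in replicate 1 and 40.8% in replicate 2. Next came 4933431E20Rik with 24.2 and 25.2 TPM, Kcnmb4os2 with 22.5 and 22.4 TPM, A830036E02Rik with 22.9 and 19.5 TPM and A830082K12Rik with 22.2 and 19.7 TPM. Gm13205 had 18.2 and 22.2 TPM, Rab10os 20.7 and 16.4 TPM, E130307A14Rik 20.6 and 16.3 TPM and Gm26782 16.04 and 13.5 TPM. The 2 libraries gave Tug1 and B230334C09Rik the first and second place and 4933431E20Rik the third, whereas the order after it differed between them. Gm13375, AC109619.1, Tmem147os, 2810468N07Rik, Gm11175, Gm4419 and Sp3os came after them.

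**Figure D1:**
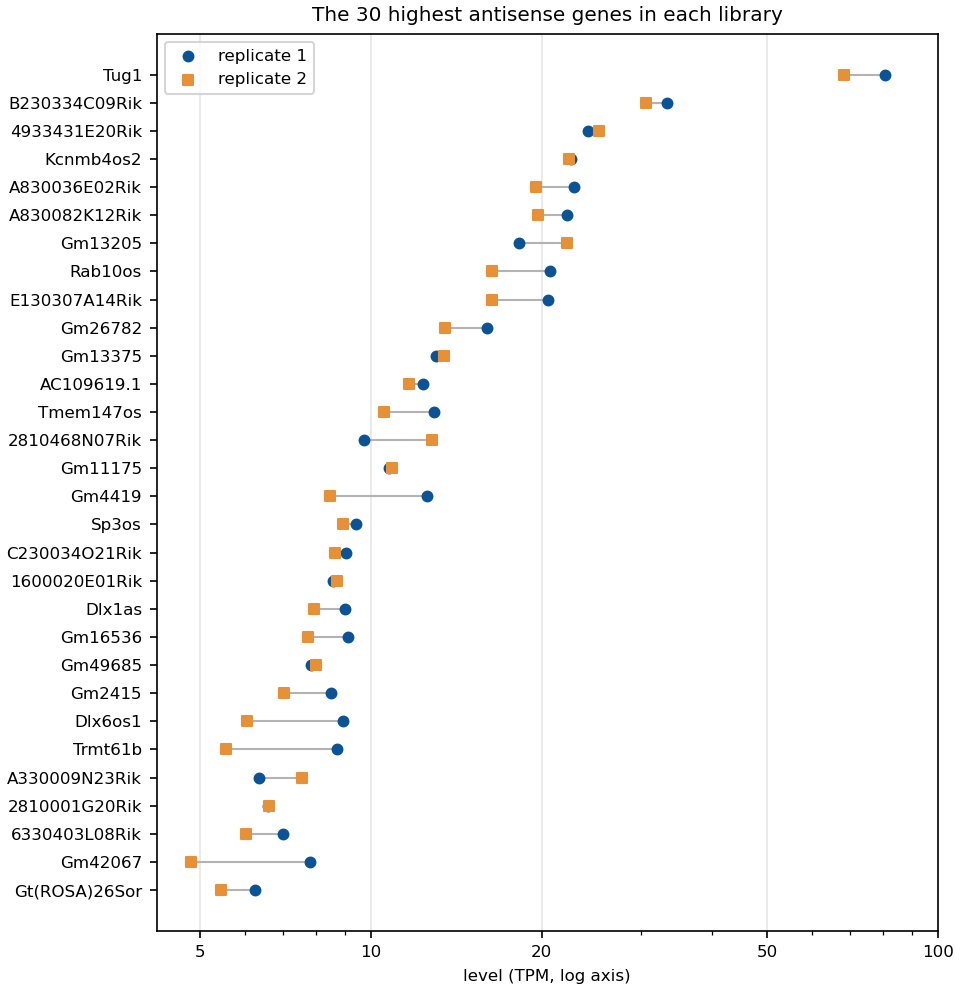
Levels in TPM (log axis) of the 30 highest members, with replicate 1 as circles and replicate 2 as squares joined by a line. Tug1 stands above the rest at 80.6 and 68.3 TPM, and most other genes have their replicates close together.

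Antisense genes stood below their sense partner far more often than above it. A partner was the protein-coding gene on the opposite strand with the largest overlap, which 91 members had, or the nearest such start within 5 kb, which a further 4 had. All 95 partners were distinct protein-coding genes. The antisense over sense ratio, log2 of (TPM + 0.1) over (TPM + 0.1), had a median of -2.27 over the 95 pairs, so that the median partner was 4.83-fold above its antisense gene. Library medians were -2.27 in replicate 1 and -2.34 in replicate 2, and the median over all 2845 antisense-type genes with a partner was -5.68. In 69 pairs the sense gene was above in both libraries by a mean over 2 SD, against 86.4% of all antisense-type genes with a partner. In 20 pairs the antisense gene was above by that rule, against 2.36%, and 6 pairs were within the spread. The 20 include Sp3os with Gm11084, a partner to which no read can be assigned, and 19 of 94 pairs remain without it. The read limit removes antisense genes at low level, so nothing about the members is read from the gap to these shares. The authors' credible intervals, of a level not given in the sources used here, did not overlap in either library for 84 of those 94 pairs. These intervals do not always hold the TPM given here. B230334C09Rik, at 33.28 and 30.51 TPM, lay above its upper bounds of 32.96 and 30.31.

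The partners were often well expressed. Their median was 16.5 TPM, against 3.96 TPM for the 21951 protein-coding genes and 10.7 TPM for the partners of all antisense-type genes. At 1 TPM or more in both libraries there were 83 of 95 partners, 87.4%, against 59.2% of protein-coding genes and 76.5% of the partners of all antisense-type genes. In reads, the median antisense gene held 12.5% of its pair in replicate 1 and 11.5% in replicate 2. Partners at 100 TPM or more were 8.

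**Figure D2:**
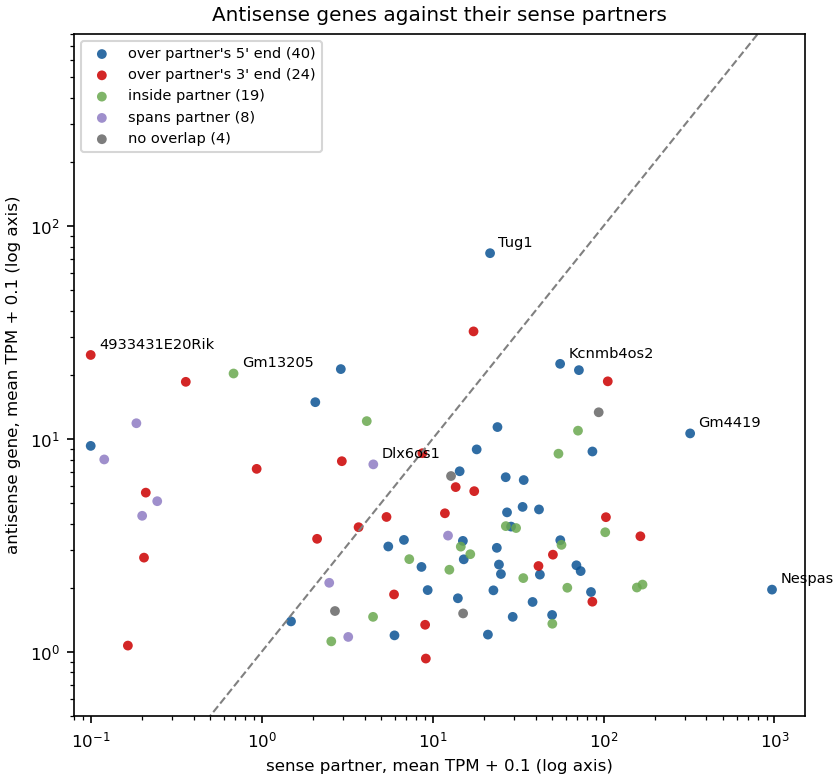
Mean TPM + 0.1 of the antisense gene (vertical, log axis) against that of its sense partner (horizontal, log axis) for 95 pairs, coloured by layout; the dashed line marks equal levels. Pairs below the line have the sense gene higher, and 12 partners lie under 1 TPM at the left. One of the points at 0.1 on the horizontal axis is Gm11084, the partner of Sp3os, which cannot hold reads.

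Antisense above sense came in pairs of 2 kinds. Without Sp3os, 11 of the 19 had a partner under 1 TPM in both libraries, and no other measured partner was under 1 TPM in both. 4933431E20Rik had 24.2 TPM in replicate 1 and 25.2 in replicate 2, with 1521 and 1506 reads, while Eps8l3, an actin-regulating adaptor of the Eps8 family, had 0 reads in both libraries. Against 3 reads of Eps8l3 the antisense gene was at least 135-fold higher in replicate 1 and at least 154-fold higher in replicate 2. E130307A14Rik, at 20.6 and 16.3 TPM, stood over Traf3ip2, the interleukin-17 receptor adaptor, at 0.23 and 0.29 TPM. Gm13205, inside Casz1, a zinc finger transcription factor, was at 18.2 and 22.2 TPM while Casz1 was at 0.53 and 0.64 TPM. Tmem147os, at 12.9 and 10.6 TPM, spans Gapdhs, the sperm glyceraldehyde-3-phosphate dehydrogenase, which had 0 and 2 reads.

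Further members stood above a partner under 1 TPM. Gm26982 was at 5.84 and 5.15 TPM beside Ghrl, the stomach hormone ghrelin, which had 0 reads in replicate 1 and 1 in replicate 2. Gm16008 was at 5.18 and 4.82 TPM against 0.22 and 0.07 TPM for Tnfrsf18 (GITR), a receptor found on T cells. 4732471J01Rik was at 4.86 and 3.65 TPM against 0.17 and 0.03 TPM for the adhesion gene Ceacam2. Gm10501, at 3.20 and 2.14 TPM, lay over Hspa1l, a heat shock protein 70 of the testis, at 0.10 and 0.11 TPM. Gm16638 had 0.89 and 1.05 TPM against Tmc3 with 0.06 and 0.07 TPM. Gm49685 was at 7.83 and 7.99 TPM against 0.04 and 0 TPM of Acot10, an acyl-CoA thioesterase, and shares exon bases with Cdh12 on its own strand (198 bases). Trmt61b, with 8.73 and 5.54 TPM against 0.81 and 0.86 TPM of the cell-cycle gene Spdya, carries the symbol of a mitochondrial tRNA methyltransferase but has only transcripts of antisense type in this annotation. The sense partner given to Sp3os, Gm11084, is a model of 69 exon bases with an effective length of 0, to which no read can be assigned, so that ratio carries no information; the median over the 94 other pairs was -2.30.

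In 8 pairs the antisense gene was above a partner that was itself at 1 TPM or more. Tug1 was at 80.6 and 68.3 TPM against 24.6 and 18.6 TPM for Morc2a, a chromatin-silencing ATPase whose start lies 482 bases away, a log2 ratio of 1.79 ± 0.11. A830036E02Rik was at 22.9 and 19.5 TPM against 2.96 and 2.65 TPM for Krt12, the corneal keratin. Gm26782 was at 16.04 and 13.5 TPM against 2.61 and 1.31 TPM for Tep1, a telomerase-associated protein, the starts 236 bases apart. B230334C09Rik stood over Lrrc40, a leucine-rich repeat gene at 17.7 and 16.8 TPM. AC109619.1 at 12.4 and 11.7 TPM lay inside Macrod1, an ADP-ribose hydrolase at 3.97 and 4.07 TPM. Gm2415 at 8.50 and 7.02 TPM lay over Itga9, an integrin subunit at 3.39 and 2.30 TPM. 6330418K02Rik at 3.03 and 3.56 TPM exceeded Gal3st4 at 1.95 and 2.07 TPM. Gm2415 and 6330418K02Rik, like Gm16638 above, were named after their values were seen, to complete the counts. Dlx6os1 is described with the pairs named after a sense gene.

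In 11 pairs the levels were within 2-fold of each other. Dlx1as was at 8.99 and 7.95 TPM, and Metap1d, a mitochondrial methionine aminopeptidase, at 9.27 and 7.95 TPM, a log2 ratio of -0.02 ± 0.03. Panct2 had 1.56 and 1.02 TPM while Slco4c1, an organic anion transporter, had 1.44 and 1.33 TPM, a ratio within the spread. The 4 other pairs within the spread, named after their values were seen, were 5033417F24Rik with Dusp28, E430024P14Rik with Tagap, Gm13111 with Prdm16 and Gm20633 with the histone gene Hist2h2aa1. The log2 ratios in replicates 1 and 2 were 0.30 and -0.22 for 5033417F24Rik and 0.01 and -0.53 for E430024P14Rik. They were -0.49 and -1.11 for Gm13111 and -0.15 and -2.29 for Gm20633, so these libraries differed and the genes are not shown to be level. With a mean of -1.22, Gm20633 was not among the 11 pairs within 2-fold.

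A list of 76 genes of synapses and ion channels held 3 partners, each above its antisense gene, as were 69 of 95 partners in all. A830092H15Rik and Gm20387 are named here as the members of that list, with their values in view. A830092H15Rik was at 3.32 and 3.17 TPM against 61.4 and 50.1 TPM for Nlgn1, a postsynaptic adhesion protein. Gm20387 was at 2.35 and 2.06 TPM against 45.1 and 39.6 TPM for Grm7, a presynaptic glutamate receptor. Gm9885 was at 1.92 and 1.88 TPM against 64.0 and 58.6 TPM for Ntrk3, the neurotrophin-3 receptor. Outside the list, A730060N03Rik had 4.19 and 4.65 TPM against 27.2 and 27.1 TPM for Cacng2, an AMPA receptor auxiliary subunit, and Gm45441 had 5.22 and 5.95 TPM against 18.0 and 16.9 TPM for the NMDA receptor subunit Grin2d; these were chosen after their values were seen. So were D430036J16Rik, at 3.59 and 2.46 TPM against 5.57 and 5.24 TPM for the serotonin receptor Htr1b, and A430027H14Rik, at 2.28 and 1.96 TPM against 35.0 and 32.6 TPM for the potassium channel Kcnk2. Gm16536, 1110002L01Rik and 9130221H12Rik were chosen in the same way. Gm16536 had 9.11 and 7.74 TPM against 56.2 and 52.6 TPM of Bace1, the beta-secretase. 1110002L01Rik had 4.74 and 3.64 TPM against 104.0 and 102.4 TPM of the kinesin Kif3c, and 9130221H12Rik had 3.74 and 3.35 TPM against 101.2 and 103.2 TPM of the kinase Gsk3a.

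A list of 75 forebrain transcription factors also held 3 partners. A830082K12Rik, at 22.2 and 19.7 TPM, was among the highest members and overlapped the 5′ end of Nr2f1, a nuclear receptor that patterns cortical areas, at 72.2 and 71.1 TPM, a log2 ratio of -1.77 ± 0.10. 2810468N07Rik was at 9.72 and 12.8 TPM against 22.4 and 25.4 TPM for Sox8, a factor of the oligodendrocyte lineage. The third was Dlx6os1 with Dlx6. Sox8 and its antisense gene were both higher in replicate 2, as were the oligodendrocyte markers (196 TPM in replicate 1, 391 TPM in replicate 2, 0 of 8 higher in replicate 1); the part of these markers in that result was not tested.

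The 10 lowest ratios were at partners from 49.9 to 967 TPM. Nespas, an imprinted noncoding RNA, was at 2.22 and 1.5 TPM, while Gnas, the stimulatory G protein alpha subunit, was at 969.9 and 965.0 TPM, a log2 ratio of -8.97 ± 0.37. Each gene is given here in whole, so nothing is said of parental alleles or of single Gnas promoters. Gm15624 had 2.07 and 1.87 TPM against 173 and 165 TPM of Dctn1, the large dynactin subunit. Gm15743 had 1.99 and 1.82 TPM against 161 and 152 TPM of Bdh1, a ketone body enzyme. Gm5577 had 3.84 and 2.94 TPM against 164.0 and 164.4 TPM of Rab7, a late endosome GTPase, and Gm4419 12.6 and 8.48 TPM against 318.0 and 324.1 TPM of Ywhaq, a 14-3-3 protein. 4833422C13Rik with Ssbp2, 4732440D04Rik with the autophagy gene Rb1cc1, Gm48045 with Rwdd1 and A730056A06Rik with Rgma, a repulsive guidance molecule, had log2 ratios of -5.66 ± 0.22, -5.31 ± 0.63, -5.07 ± 0.19 and -4.94 ± 0.08. In 25 pairs the sense gene was more than 10-fold above, and in 9, without Sp3os, the antisense gene was. Over all 2845 antisense-type genes with a partner, these counts were 2022 and, with Sp3os, 17. The read limit bears on both counts of the members.

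Other high members were also below their partner. Gm13375 had 13.0 and 13.5 TPM against 104.8 and 82.5 TPM of Arhgap21. Gm11175 had 10.8 and 10.9 TPM against 72.8 and 68.9 TPM of Jund, an AP-1 factor. 1600020E01Rik had 8.56 and 8.70 TPM against 86.2 and 85.9 TPM of Pcbp1, an RNA-binding protein, starts 74 bases apart. C230034O21Rik had 9.02 and 8.64 TPM against 20.1 and 15.9 TPM of Fat4, an atypical cadherin, and 2810001G20Rik had 6.57 and 6.62 TPM against 13.7 and 11.8 TPM of Cox10, a heme A synthesis enzyme, whose start lies 16 bases from its own and which was chosen after its values were seen.

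Of the 17 members with a name that is not a model number or a clone, 13 are named after a sense gene, and 11 of these were below it in both libraries. Kcnmb4os2 had 22.5 and 22.4 TPM, against 52.4 and 58.9 TPM of Kcnmb4, a potassium channel beta subunit, a log2 ratio of -1.30 ± 0.12. Rab10os had 20.7 and 16.4 TPM against 111 and 100.2 TPM of Rab10, a trafficking GTPase, a log2 ratio of -2.51 ± 0.13. Tmem147os had 12.9 and 10.6 TPM against 71.0 and 70.7 TPM of Tmem147, an endoplasmic reticulum membrane protein, and Sp3os 9.42 and 8.93 TPM against 22.2 and 23.1 TPM of Sp3, a GC-box factor. Dlx1as had 8.99 and 7.95 TPM against 13.95 and 12.75 TPM of Dlx1, a factor of interneuron development. Zfhx2os, Zbtb11os1 and Pcsk2os1 had log2 ratios of -1.41 ± 0.08, -2.49 ± 0.21 and -5.48 ± 0.25 to Zfhx2, Zbtb11 and Pcsk2, the prohormone convertase. Tomm6os and Phtf1os stood at -6.58 ± 0.18 and -4.26 ± 0.05 to Tomm6, a mitochondrial import subunit, and Phtf1.

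The 2 exceptions were Dlx6os1 and Brip1os. Dlx6os1, which spans Dlx6 and acts in interneuron development in the mouse, had 8.94 and 6.05 TPM against 4.99 and 3.81 TPM of Dlx6, a log2 ratio of 0.74 ± 0.12. Both genes of this pair were higher in replicate 1. By scaled read counts, 3 of 6 interneuron markers and 7 of 8 striatal markers were higher there. In TPM, all striatal markers and the interneuron markers Gad1, Gad2, Lhx6, Dlx1 and Dlx2 were higher in replicate 1, while Sst was lower. The interneuron sum was 305 TPM in replicate 1, against 279 TPM in replicate 2. The part of these markers was not tested. Brip1os had 3.62 and 3.21 TPM against 0.54 and 0.37 TPM of Brip1, a DNA repair helicase, a log2 ratio of 2.68 ± 0.20. The 2 gene spans do not overlap, and neither do those of Tmem147os and Tmem147. The partner of Brip1os by overlap, Ints2, was at 13.35 and 11.07 TPM, a log2 ratio of -1.80 ± 0.07. Gt(ROSA)26Sor, the mouse locus used for transgene insertion, was at 6.24 and 5.44 TPM against 15.2 and 11.9 TPM of Thumpd3.

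**Figure D3:**
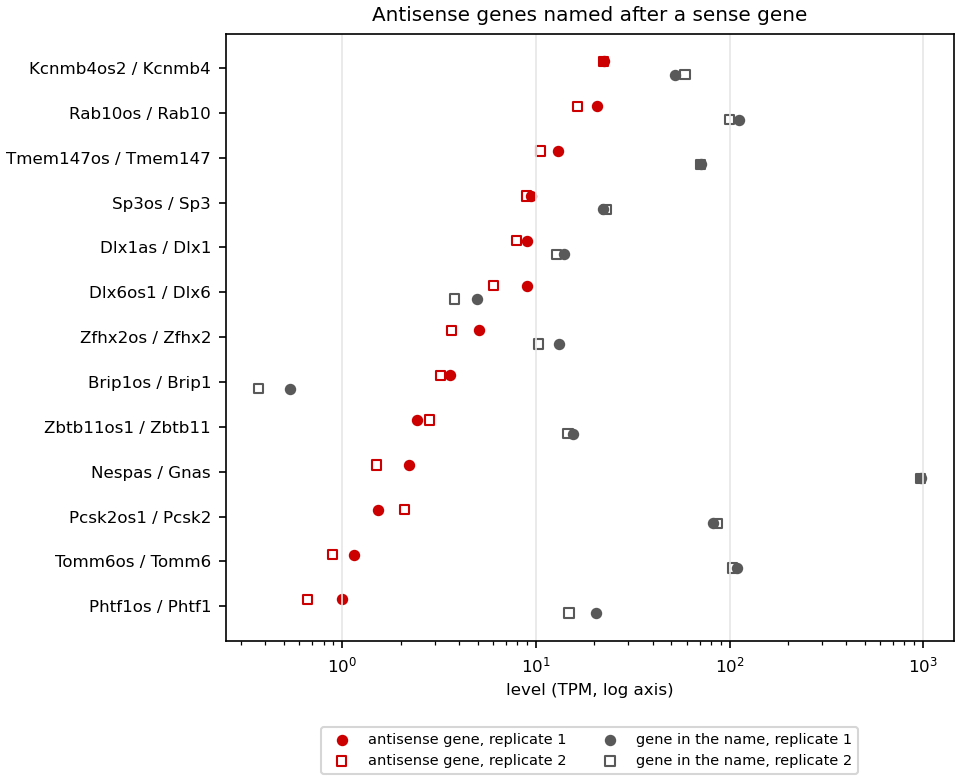
Levels in TPM (log axis) of 13 members named after a sense gene, antisense in red and the named gene in grey, circles for replicate 1 and squares for replicate 2. Dlx6os1 and Brip1os lie to the right of their named gene, and the other members to its left.

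Pairs were laid out in 5 ways. Of 95 pairs, 40 (42.1%) had the antisense gene over the partner's 5′ end, 24 (25.3%) over its 3′ end, 19 (20%) inside it, 8 (8.42%) spanning it and 4 (4.21%) without overlap. Over all antisense-type genes with a partner, 21.4% lay over the 5′ end, 14.9% over the 3′ end and 56.4% inside. The members' median ratio was -2.82 over the 5′ end (39 pairs without Sp3os), against -4.47 for all antisense-type genes of that layout. It was -0.76 over the 3′ end, against -5.16, and -2.70 inside, against -6.62. It was 2.60 for the 8 spanning members, against -0.47, and -1.87 without overlap, against -4.03. The order of the layouts thus differed: among members the 3′ end was above the 5′ end, and among all antisense-type genes it was below it. Spanning genes had the highest median of the 5 layouts in both. Antisense was above in 3 of the 39 members over the 5′ end (2.47% of all antisense-type genes of that layout), 9 of 24 over the 3′ end (4.71%) and 2 of 19 inside (0.998%). It was above in 5 of 8 spanning members (13.0%) and 0 of 4 without overlap (1.08%). The read limit acts on the antisense side of these ratios, and they are descriptions with no test.

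Starts lay within 1 kb of each other in 26 pairs (27.4%, against 14.2% of all antisense-type genes with a partner). These had a median ratio of -2.85, against -1.81 in the 68 others without Sp3os. Over all antisense-type genes the order was the other way round, with -4.73 within 1 kb (403 genes) and -5.90 further away (2442 genes), so no relation to the distance is read from the members. Antisense was above in 2 of the 26, Tug1 and Gm26782 (1.49% of all antisense-type genes within 1 kb), and in 17 of the 68 others (2.5%).

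**Figure D4:**
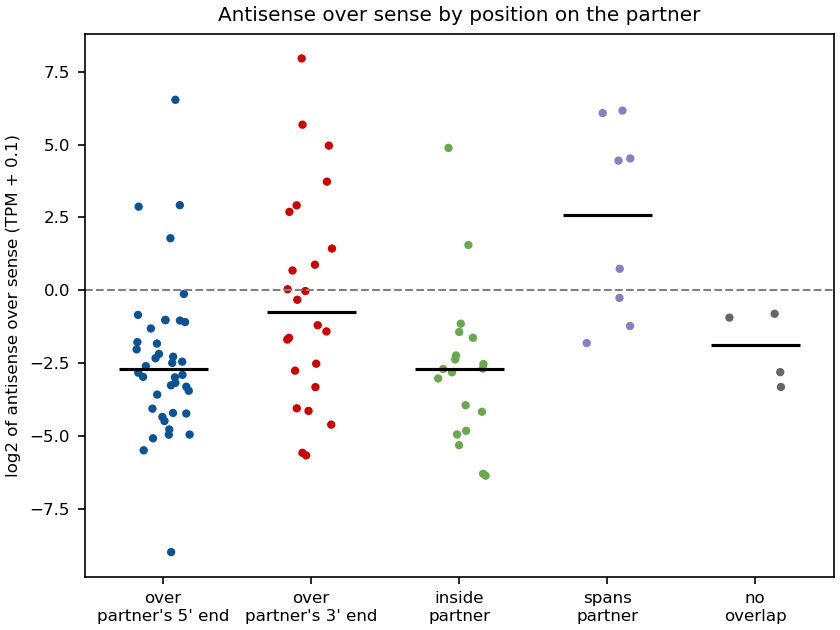
Mean log2 ratio of antisense over sense (TPM + 0.1, vertical) of each pair by its position on the partner, with bars for the medians and a dashed line at equal levels. Genes spanning the partner have the highest median, 2.60; the bars over the 5′ end and inside lie close together at -2.71 and -2.70. The highest point over the 5′ end is Sp3os, whose ratio carries no information.

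Exons of the members often overlapped those of the partner, and the reads had to be told apart by strand. The deposited notes list plus and minus strand signal tracks, and the label for the spike-ins speaks of stranded libraries. In 78 pairs (82.1%) at least 1 exon base was shared, against 57.2% of all antisense-type genes with a partner. In 9 pairs at least 50% of the member's exon bases lay in partner exons, and the median share was 13.3%. The read limit favours genes with more exon bases, so no trait of the members is read from these shares. Of 20 antisense-type genes with at least 90% of their exon bases inside exons of a partner at 50 TPM or more, 11 had 0 reads in both libraries and the median was 0 reads. Over all antisense-type genes 52.0% had 0 reads in both. The 200 with no exon overlap and a partner at 50 TPM or more also had a median of 0 reads. Nothing about carry-over between strands is read from the 20 genes. One of the 20 is a member, Gm11175 inside Jund, with 65 and 76 reads, 2.95% and 3.32% of the reads of the pair. That share was not tested for carry-over from the sense strand.

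Members had fewer exon blocks than all antisense-type genes but more exon bases. A block joins overlapping or adjoining exons of all transcripts of a gene, so a gene with spliced transcripts can count as a single block. The median was 2 blocks against 3, and 2787 exon bases against 917. A single block was found in 26 members (26.8%), against 7.06%. A limit on reads favours long genes, and the 189 lincRNA genes at the same limit had a median of 3510 exon bases. Of the 97, 36 had a single transcript and 61 several, with the same leading transcript in both libraries in 56. 1600020E01Rik, C230037L18Rik, Gm9885, Nespas and 1700034H15Rik had a different leading transcript in each library; of these 1700034H15Rik was named after its values were seen. Members lay on all autosomes and 0 on X or Y; of 45 antisense-type genes on X, the highest, Tsix, had a mean of 25.1 reads.

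Gm10593 and Gm3892 had no partner and share their reads. Gm10593-201 and Gm3892-202 are identical over 3539 bases, and the tables list 133 and 134 reads and 2.07 and 1.90 TPM for each gene. Their values are therefore uncertain as those of single genes.

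RefSeq start windows of 300 bases were found for 51 members, and 39 lay within 500 bases of the GENCODE start. The 39 had a median of 19 CG dinucleotides, against 14 in 20150 protein-coding windows and 7 in all 32851. Windows of members that start within 1 kb of their partner had a median of 21 (n = 10) and the others 17 (n = 29). GGGCGG was found on either strand in 23 of 39 (59.0%, against 35.7% of all windows), CCAAT in 17 (43.6%, against 37.4%) and TATAAA in 1 (2.56%, against 13.6%). The protein-coding and all-window sets were not limited to genes with reads, as the members were. No trait of antisense starts is read from these gaps. A match in a window is a string of letters, not a site.

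The 2 libraries gave close levels for most members. After TMM scaling, 1 of 97 members was 2-fold or more apart (1.03%, against 0.61% of 14268 genes with a mean of 50 reads or more), and 5 were 1.5-fold or more apart (5.15%, against 3.14%). The one was Gm49747, over the 5′ end of Tm9sf1, with 76 reads in replicate 1 and 37 in replicate 2 and a log2 ratio of replicate 1 over replicate 2 of 1.04. 4732440D04Rik had a log2 ratio of 0.67, and Gm6277, 9630013A20Rik and Pcsk2os1 had -0.87, -0.67 and -0.67; Gm6277 and 9630013A20Rik were named after their values were seen, to complete this count. Replicate 1 was higher for 59 of 97 members (60.8%), against 45.5% of all genes and 64.6% of lincRNA genes, and the median log2 ratio was 0.06, against -0.02 and 0.09. The median absolute log2 ratio was 0.185 for members and 0.099 for all genes; among genes of 50 to 500 reads it was 0.203 for 90 members and 0.15 for 6159 genes.

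**Figure D5:**
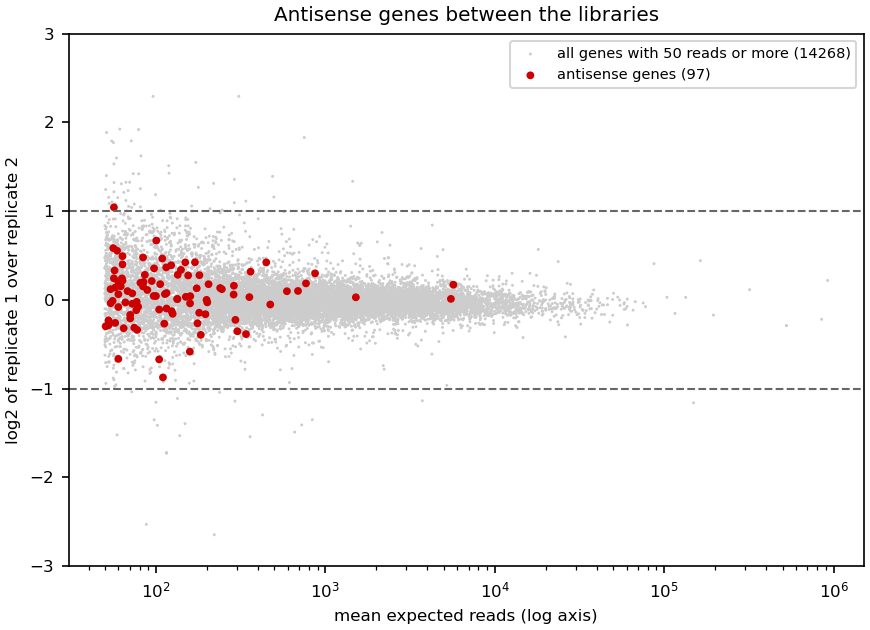
Log2 ratio of replicate 1 over replicate 2 (TMM, vertical) against mean expected reads (log axis) for 97 members in red and 14268 genes with 50 or more reads in grey, with dashed lines at 2-fold. 1 member, Gm49747, lies beyond a line, and 9 genes fall outside the range drawn.

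The reads were quantified with and without alignment. The alignment-free tables gave TPM higher by a median log2 of 0.58, as for protein-coding genes, and 3 members (3.09%, against 3.39% of genes) lay more than 2-fold from that shift. Gm26782 had 46.3 TPM without alignment and 14.8 TPM with it. Gm49685 was at 2.41 and 7.91 TPM in the same order, and Gm3892, one of the identical copies, at 6.65 and 1.99 TPM. C230037L18Rik, Gm11175, Gm10593, Zfhx2os, A830082K12Rik, A730056A06Rik and A230077H06Rik were the next furthest.

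At the limit, the 3 members just inside were Gm48045, A930012L18Rik and Gm15559, with means of 50.5, 52.5 and 52.5 reads. The 3 genes just outside were Gm9962, AB041806 and 4930513N10Rik, with means of 49, 49 and 48.5 reads.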

How the data were processed

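Total RNA of 2 left cortices (1 group, n = 2) was analysed. Expected counts and TPM per gene, with credible intervals, were derived by the authors from mm10 alignments with annotation M21, per the deposited notes, with tool and interval level not given in the sources used here. The percent of a gene's TPM held by each transcript was also deposited by the authors. TPM and estimated counts of the alignment-free tables were deposited per transcript and were summed per gene here. Credible interval bounds were used as a TPM-like signal, as deposited by the authors. Members and lists were chosen with earlier results of these data known. Expected counts were scaled with TMM (edgeR 4.0.16, limma 3.58.1, R 4.3.3), and 0.5 was added to each count in ratios; TPM ratios had 0.1 added. DESeq2 1.42.0 gave size factors in an alternative. Python 3.11.15, numpy 2.4.6, pandas 2.3.3 and matplotlib 3.10.9 were used otherwise. The ratio of replicate 1 over replicate 2 was tested on simulated counts, with the same extra spread set for all genes. That spread was not fitted to the members, so nothing about them is read from the simulation. Named members are the 20 highest, those with a name of their own, the 10 largest and 10 smallest ratios, those 2-fold apart between libraries, the 10 furthest between quantifications, the 3 on each side of the limit, and their partners; the text marks the others as picked with their values in view. Intervals and floors cover counting error only.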

Additional observations from a re-analysis of the deposited data

How the results depend on the processing

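The number of members was 222 at 20 reads or more, 53 at 100 reads or more, 89 with 50 reads in each library and 141 from the alignment-free counts. Members at 1 TPM in both libraries numbered 90, against 31 at 5 TPM, 97 at 0.5 TPM and 96 in the alignment-free tables. The median log2 ratio of antisense over sense stayed negative under every alternative run: -1.91 with 1 TPM added, -2.33 with 0.01 TPM added, -2.44 with the highest overlapping gene of any type as partner, -4.67 and 66 antisense genes above with no minimum beyond a mean of 1 read (1055 pairs), and -2.25 in the alignment-free tables. Leaving out either library gave -2.34 to -2.27. Among alternatives chosen after seeing the data, the ratio was -2.33 without same-strand exon overlap, -2.36 with the partner named in the symbol and -2.30 without the partner of effective length 0. Antisense genes above numbered 17 to 23 in the alternatives other than the one with a mean of 1 read. The single member 2-fold apart between libraries was not found with alignment-free counts (0) or at 100 reads or more (0). The cause of these shifts was not tested. No paired analysis was possible because there is 1 group.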
